A study of Homo sapiens with 5 samples.

Results

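Expression of the enzymes that write and erase DNA methylation, and of the enzymes that remove methyl groups from lysine 27 of histone H3 (H3K27), was examined in TOV21G, a cell line of ovarian clear cell carcinoma in which ARID1A is mutated. Of 9 genes considered (DNMT1, DNMT3A, DNMT3B, UHRF1, TET1, TET2, TET3, KDM6A and KDM6B), 8 were matched by gene symbol to rows of a count table of 30476 Ensembl identifiers. UHRF1, which brings DNMT1 to replicating DNA, was not analysed here because the identifier that the annotation pairs with its symbol was not matched. RNA-seq of total RNA gave 5 libraries. One came from untreated parental TOV21G cells, and 4 came from EZH2 inhibitor-resistant (EIR) clones 3 and 4, each grown without treatment and with GSK126, a small-molecule EZH2 inhibitor. The clones had been derived from TOV21G by raising GSK126 in steps from 5 to 10, 15 and 20 uM, so every EIR library carries that history. All 5 libraries share the ARID1A mutation of the line. There was 1 parental library, which gives no spread of its own, and the untreated and treated libraries of a clone are the same clone. The p-values therefore rest on the spread among the EIR libraries. For each clone against parental, that is the spread between the untreated and treated libraries of a clone. They do not measure the spread among parental cultures or among independent resistant lines.

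DNMT3A and DNMT3B place methyl groups on cytosines of CpG dinucleotides that carry none, and DNMT1 copies the mark onto the new strand after DNA replication. TET1, TET2 and TET3 oxidise 5-methylcytosine, after which it is lost by dilution or by base excision. KDM6A (UTX) and KDM6B (JMJD3) take methyl groups from H3K27, the residue that EZH2 methylates, so that they act opposite to the target of GSK126. The TET and KDM6 enzymes all need iron and 2-oxoglutarate.

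The CpG dinucleotide is the substrate that the DNMT and TET enzymes share, and the sequences before the starts of TET1, TET2 and DNMT3A are shown because these 3 genes carried the main differences. They are the 250 bases before the first start listed by RefSeq (GRCh38.p14), each found once in GRCh37, 5′ to 3′ on the strand of the gene, with each CpG in capitals. TET1 lies at chr10:70319844-70320093 on the plus strand, TET2 at chr4:106066782-106067031 on the plus strand and DNMT3A at chr2:25565353-25565602 on the minus strand.
TET1: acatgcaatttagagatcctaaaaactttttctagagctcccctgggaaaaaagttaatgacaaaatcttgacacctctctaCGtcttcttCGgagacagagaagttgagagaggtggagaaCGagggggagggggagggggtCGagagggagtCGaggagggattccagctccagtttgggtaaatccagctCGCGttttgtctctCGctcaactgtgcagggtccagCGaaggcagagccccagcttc
TET2: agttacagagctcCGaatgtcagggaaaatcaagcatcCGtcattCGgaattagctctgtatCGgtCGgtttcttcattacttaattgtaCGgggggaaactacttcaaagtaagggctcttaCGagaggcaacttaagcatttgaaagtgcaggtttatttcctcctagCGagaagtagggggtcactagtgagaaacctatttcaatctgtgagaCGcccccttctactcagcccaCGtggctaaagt
DNMT3A: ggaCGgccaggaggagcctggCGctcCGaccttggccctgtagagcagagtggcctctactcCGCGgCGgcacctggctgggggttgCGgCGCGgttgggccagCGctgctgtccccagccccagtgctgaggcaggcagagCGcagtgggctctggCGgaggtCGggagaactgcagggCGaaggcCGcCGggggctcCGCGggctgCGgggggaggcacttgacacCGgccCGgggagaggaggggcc
CpG was counted by its letters CG, which read the same on both strands. TET1 had 9 CpG dinucleotides in this window and TET2 had 10, near the median of 11 over 27305 promoters of the same length. DNMT3A had 21, a number reached by 29.8% of promoters, and DNMT1 and KDM6B also had 21. TET3 had 37, which 3.87% of promoters reached, KDM6A had 27 (17.3%) and DNMT3B had 3 (76.4%). RefSeq lists 6 starts for DNMT3A, 3 for TET1 and 2 for TET2, and the counts do not show which was used. By the annotation used for the gene positions here, the DNMT3A window overlaps the first bases of the gene. The DNMT1 and DNMT3B windows lie inside their genes. That annotation starts DNMT1, DNMT3A and DNMT3B further upstream. DNA methylation itself was not measured in these libraries.

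Counts were scaled by median-of-ratios size factors (normalized counts), and levels of different genes were set side by side per kilobase of the canonical transcript. In parental cells, DNMT1 was highest with 1698 normalized counts per kb, above 89.6% of the 11263 expressed genes (mean of at least 100 normalized counts) with a canonical transcript length. DNMT3B followed with 729.8, KDM6A with 309, TET1 with 189, TET2 with 180.3, TET3 with 84.6 and DNMT3A with 65.6 normalized counts per kb. KDM6B was at 2.99, near the bottom of the range. The parental order has no replicate and depends on the canonical length taken for each gene. The levels of TET1 and TET2 were close to each other. In the clone 3 libraries TET1 stood below TET3, at 47.9 and 47.4 normalized counts per kb against 89.2 and 92.3 for TET3, so the places of these genes were exchanged in both libraries.

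**Figure D1:**
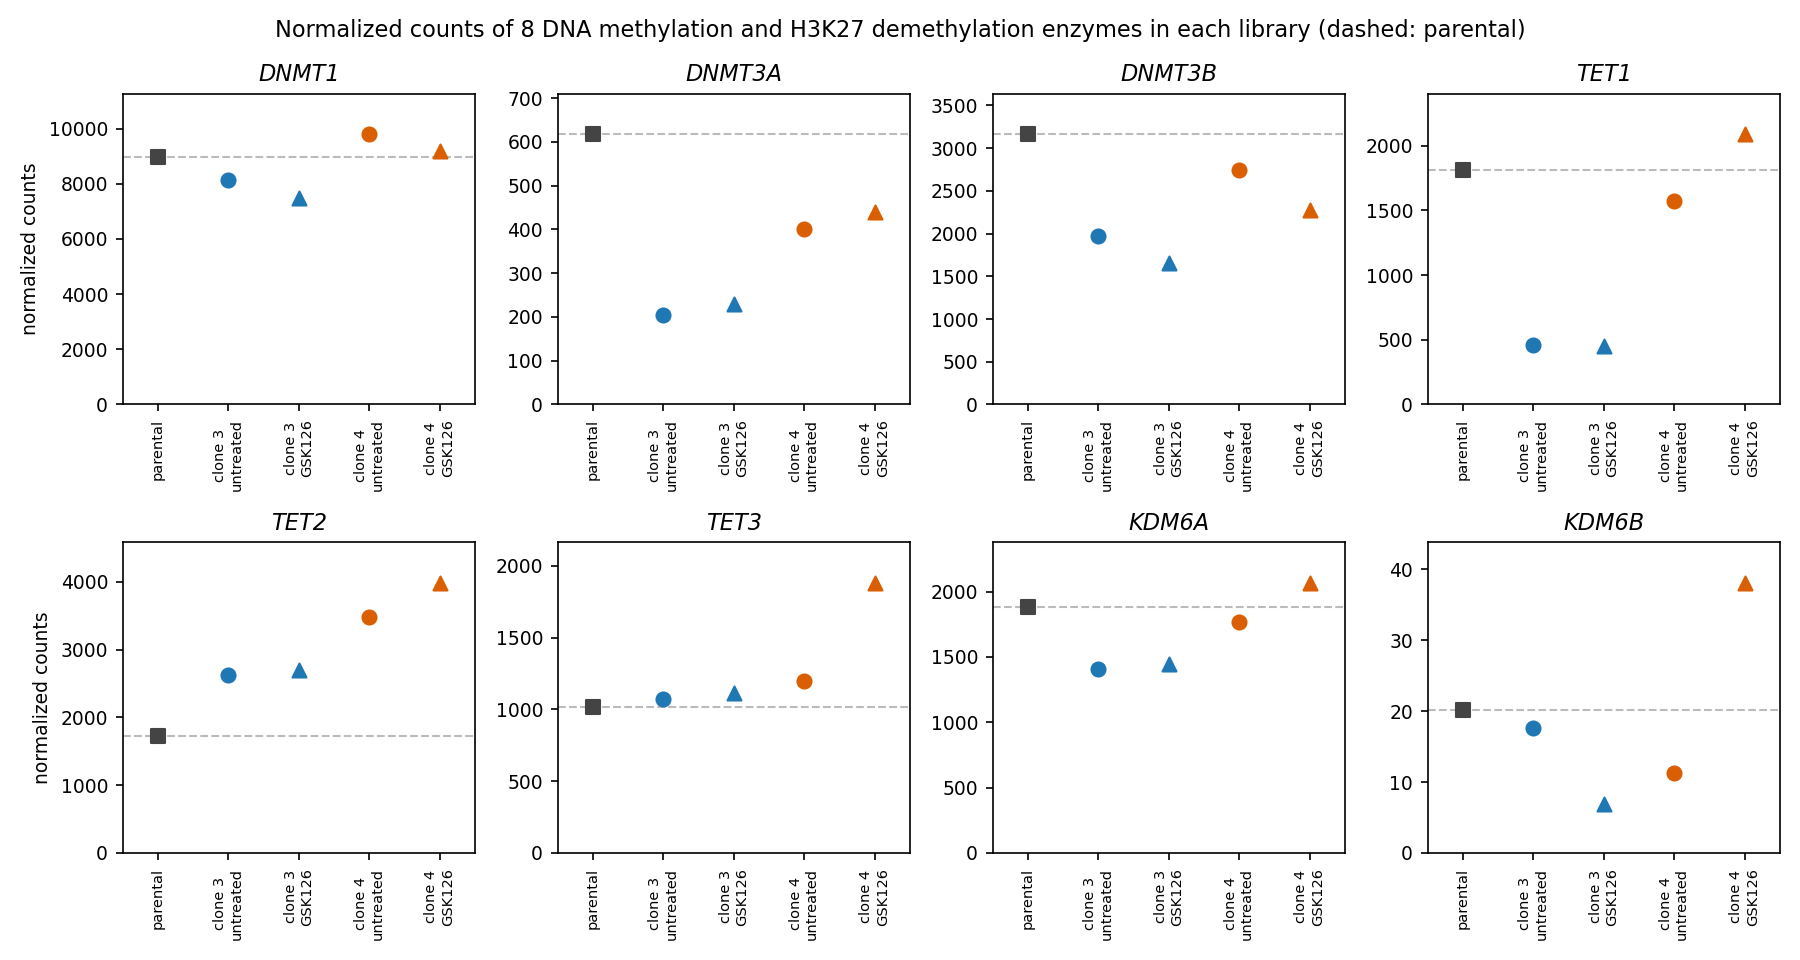
Normalized counts (vertical axes from 0, a scale for each gene) of the 8 genes in the 5 libraries, 1 point per library, with parental as a grey square and dashed line, clone 3 in blue, clone 4 in orange, circles for untreated and triangles for GSK126. TET1 and DNMT3A are low in both clone 3 libraries, and TET2 is above parental in all 4 EIR libraries.

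Taking the 4 EIR libraries together against parental, only TET2 passed the test (DESeq2, adjusted p under 0.05), which is 1 of 8 genes and was higher, while 25.5% of all genes tested passed, 12.4% higher and 13.2% lower. In clone 3, 4 of 8 passed against parental, with TET2 higher and TET1, DNMT3A and DNMT3B lower, beside 29.2% of all genes (14.7% higher and 14.5% lower). In clone 4, TET2 was the 1 gene of 8 that passed, beside 32.9% (14.7% higher and 18.3% lower). Between the clones, TET1 and DNMT3A passed and were higher in clone 4, 2 of 8 beside 9.84% of all genes (3.31% higher and 6.53% lower). With a correction for GC content, 7 of the 8 enzyme genes, all but KDM6B, passed as higher in clone 4. Of all 16552 genes tested with that correction, 974 were higher and 1062 lower in clone 4. Higher genes were then 47.8% of the calls between the clones in place of 33.6%. The median log2 difference over all expressed genes moved from -0.0387 to 0.0569. The edgeR test called 0 of 8 genes in EIR against parental (11.1% of all genes), the same number of genes as DESeq2 in clone 3 against parental (4 of 8, beside 32.7%), 2 of 8 in clone 4 against parental (35.3%) and 4 of 8 between the clones (14.9%). The 3 comparisons with parental share its single library.

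**Figure D2:**
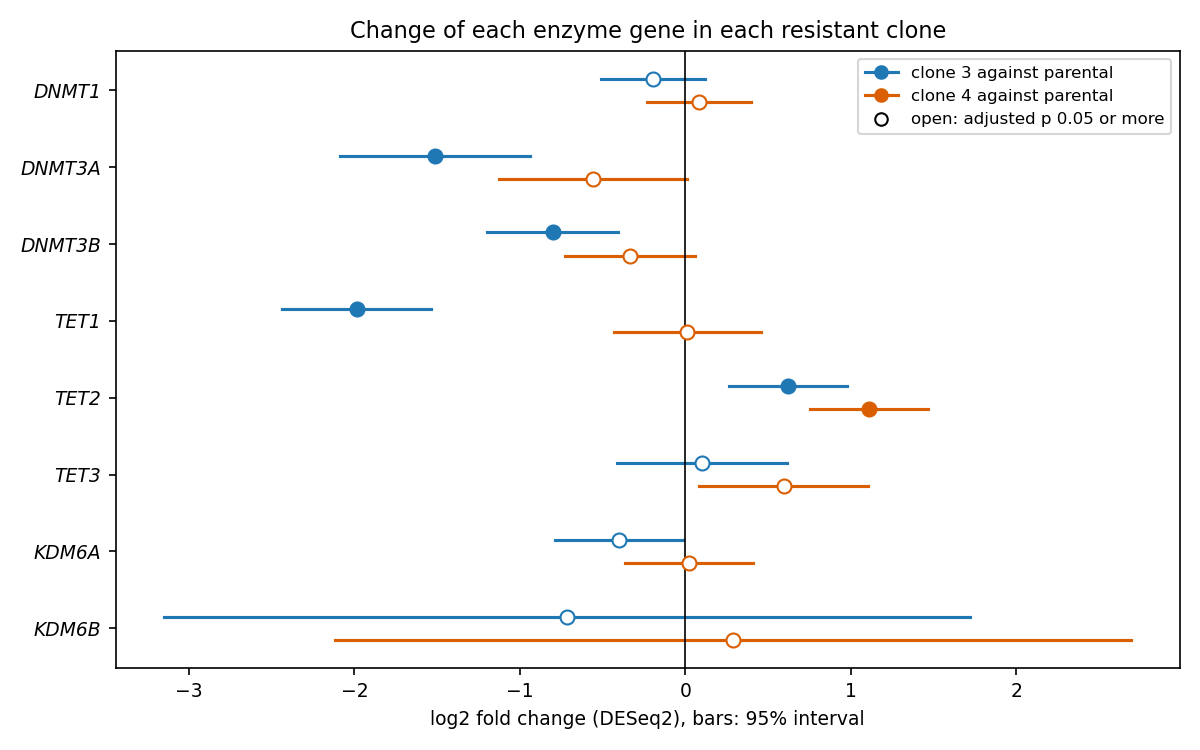
Log2 fold change (horizontal axis, DESeq2, bars are 95% intervals) of each gene in clone 3 (blue) and clone 4 (orange) against parental, with filled points where the adjusted p was under 0.05. TET1 is at -1.99 in clone 3 and 0.01 in clone 4, and TET2 is filled in both clones.

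The separate libraries showed the same split. Both clone 4 libraries were above both clone 3 libraries for 7 of the 8 genes, all but KDM6B, while 29.3% of all genes tested had this order. TET2 and TET3 were above parental in all 4 EIR libraries, 2 of 8 genes beside 33.4% of all genes, and DNMT3A and DNMT3B were below parental in all 4, 2 of 8 beside 36.6%. The counts of genes lying on one side of parental were therefore not above those of the whole table.

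Among the writers, DNMT3A (ENSG00000119772, chr2:25450724-25565459, minus strand, GRCh37) had 618 normalized counts in parental cells, 204 and 230.3 in untreated and GSK126-treated clone 3, and 401 and 439 in untreated and treated clone 4. Clone 3 was lowest, clone 4 lay between clone 3 and parental, and the clones did not overlap. DNMT3A fell in clone 3 against parental (log2 fold change -1.51, SE 0.29, DESeq2 adjusted p = 3.910e-06), a level 2.85-fold lower. In clone 4 the log2 fold change was -0.56 (SE 0.29, DESeq2 adjusted p = 0.131), which edgeR called (0.0383) and which was -0.13 with the GC correction (0.787). The clones differed from each other by 0.95 on the log2 scale (SE 0.29, DESeq2 adjusted p = 0.0172), with clone 4 1.93-fold higher (95% interval 1.29 to 2.88). That call was lost without untreated clone 3 (adjusted p = 0.2637) or without treated clone 3 (0.1154), when a single clone 3 library is assumed to vary as the other libraries do. The genes whose profile over the 5 libraries was nearest to that of DNMT3A were COL7A1, with 300.1, 119, 123, 218 and 225 normalized counts in the same order, and ZNF395, both at a root mean square distance of 0.09 on the centred log2 scale among 11564 genes.

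DNMT3B (ENSG00000088305, chr20:31350191-31397165, plus strand), the other de novo methyltransferase, had 3165 normalized counts in parental cells, 1973 and 1660 in clone 3, and 2739 and 2281 in clone 4, untreated first. All 4 EIR libraries were below parental, clone 3 the more so. It fell in clone 3 by 0.80 on the log2 scale (SE 0.20, DESeq2 adjusted p = 5.573e-04), and without the treated clone 3 library the adjusted p was 0.1245. Clone 4 gave a log2 fold change of -0.33 against parental (SE 0.20, adjusted p = 0.207). The difference between the clones was 0.46 on the log2 scale (adjusted p = 0.0909 with DESeq2, 0.0361 with edgeR). With the GC correction it was 0.56 (DESeq2 adjusted p = 0.00630), and the log2 fold change of clone 4 against parental was 0.029 (0.936).

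DNMT1 (ENSG00000130816, chr19:10244018-10341962, minus strand), the maintenance enzyme, had 8956 normalized counts in parental cells, 8154 and 7486 in clone 3, and 9801 and 9182 in clone 4. The libraries of clone 3 were below parental and those of clone 4 above it. Its fold change in EIR cells against parental was 0.966 (95% interval 0.718 to 1.30, DESeq2 adjusted p = 0.901), and it passed in none of the 5 comparisons with DESeq2 as first fitted. With the GC correction it passed in clone 4 against parental (log2 fold change 0.46, DESeq2 adjusted p = 0.0118) and between the clones (0.38, 0.0435). S1PR2, which overlaps DNMT1 on the same strand, had 3 to 36 counts and could hold few of its reads.

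Per kb, DNMT1 made up 68.1% of the summed DNMT level in parental cells and 73.4% to 77.7% in the EIR libraries, and DNMT3B 29.3% and 21.0% to 24.9%. DNMT3A was 2.63% of the sum in parental cells, 1.07% and 1.34% in clone 3, and 1.68% and 2.01% in clone 4. The summed level was 2494 normalized counts per kb in parental cells, 2023 and 1827 in clone 3, and 2533 and 2314 in clone 4. These shares are descriptions of single libraries. They depend on the canonical length taken for each gene, and the counts do not show which transcript was expressed.

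Among the erasers, TET1 (ENSG00000138336, chr10:70320094-70454244, plus strand) stood at 1815 normalized counts in parental cells, 460.1 and 456 in untreated and treated clone 3, and 1572 and 2091 in clone 4. The clone 3 libraries were close to each other and far below the rest, and parental lay between the libraries of clone 4. TET1 fell in clone 3 by 1.99 on the log2 scale (SE 0.23, DESeq2 adjusted p = 4.332e-16), a 3.96-fold lower level (edgeR adjusted p = 5.062e-04). In clone 4 the log2 fold change was 0.01, with a 95% interval of the fold from 0.741 to 1.37 (adjusted p = 0.977). The difference between the clones was 1.98 (SE 0.22, DESeq2 adjusted p = 5.530e-18), or 3.94-fold (95% interval 2.94 to 5.28). It passed in all 10 alternatives run, with log2 differences from 1.77 to 2.18. With the 4 EIR libraries as 1 group, the different levels of the clones gave a mean of 1144 ± 821 normalized counts (SD, n = 4) and an adjusted p of 0.730 with DESeq2. The profiles nearest to that of TET1 were those of ERBB4, a receptor tyrosine kinase with 2152, 718, 683, 2357 and 2569 normalized counts in the same order, and ARHGEF37, each at a distance of 0.16.

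The genes around TET1 were examined next. Over the 20 nearest expressed genes, 10 on each side, the median log2 ratio to parental was -0.36 in clone 3 and -0.35 in clone 4. These were close to the chr10 medians of -0.41 and -0.41 over 448 genes. Both sets were below the medians over all expressed genes, -0.06 in clone 3 and -0.09 in clone 4. None of the 20 neighbours (0) was as low as TET1 in clone 3, whereas 14 were lower than TET1 in clone 4. The first expressed gene after TET1, ENSG00000260400, is a lncRNA on the same strand whose start (chr10:70458257-70460551) is 4013 bases past the end of TET1. It had 152 normalized counts in parental cells, 66.7 and 54.4 in clone 3, and 201 and 298 in clone 4. Like TET1 it was low in clone 3 only (log2 fold change -1.33 against parental, DESeq2 adjusted p = 0.0165) and differed between the clones by 2.02 (adjusted p = 4.968e-05), so these neighbours on one strand carried the same split. STOX1, DDX50 and SRGN, further along, had log2 ratios of -1.61, -1.09 and -1.31 in clone 3 and of -0.81, -1.42 and -1.53 in clone 4. They were below parental in both clones, unlike TET1. These genes were named after their values were seen.

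**Figure D3:**
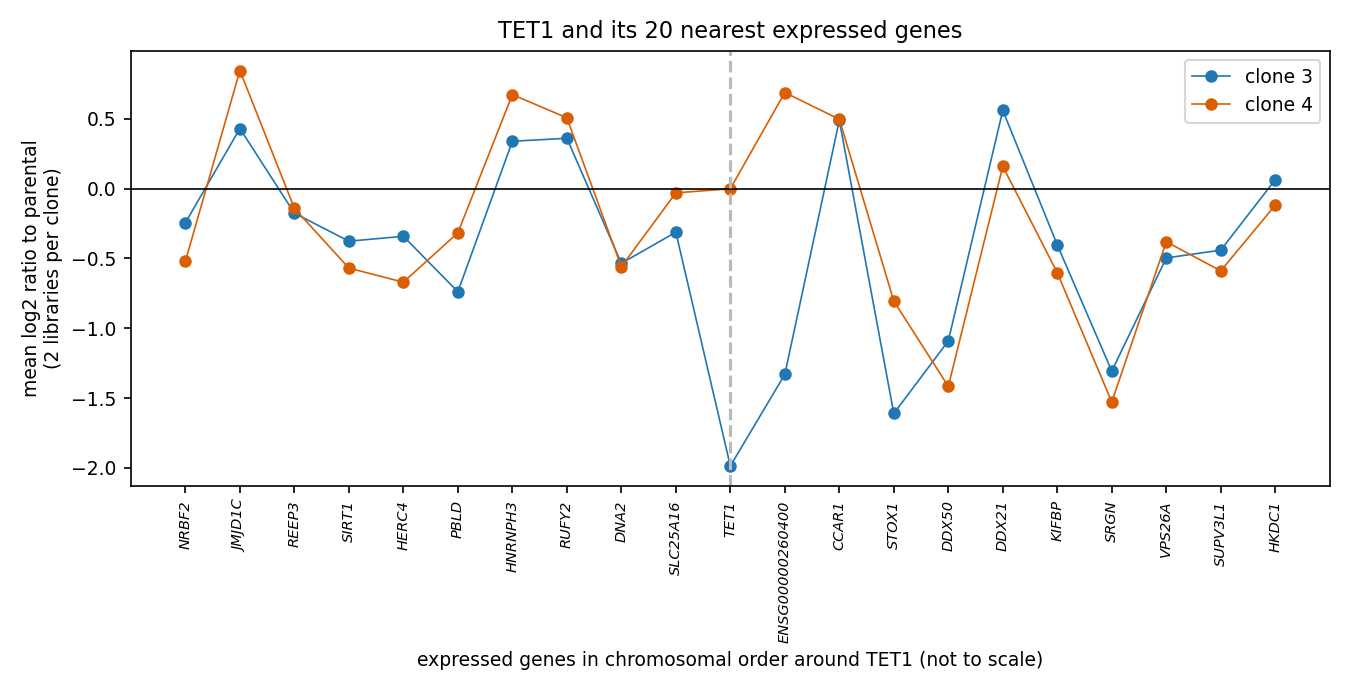
Mean log2 ratio to parental (vertical axis, 2 libraries per clone) of TET1 and of its 20 nearest expressed genes in chromosomal order (horizontal axis, not to scale), clone 3 in blue and clone 4 in orange, with a dashed line at TET1. The clones part at TET1, at -1.99 and 0.00, and at the adjacent lncRNA, at -1.33 and 0.69, and run near each other at most other genes.

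TET2 (ENSG00000168769, chr4:106067032-106200973, plus strand) stood at 1729 normalized counts in parental cells, 2621 and 2700 in clone 3, and 3484 and 3990 in clone 4. Every EIR library was above parental, and clone 4 was above clone 3. TET2 rose in EIR cells against parental by 0.89 on the log2 scale (SE 0.31, 1.85-fold, 95% interval 1.22 to 2.80, DESeq2 adjusted p = 0.0192), from 1729 to 3199 ± 656 normalized counts (SD, n = 4). It rose by 0.62 in clone 3 (SE 0.18, DESeq2 adjusted p = 0.00354) and by 1.11 in clone 4 (SE 0.18, adjusted p = 1.811e-08), that is 1.54-fold and 2.16-fold. The clones did not pass against each other (log2 difference 0.48, DESeq2 adjusted p = 0.0553), but did with edgeR (0.0381) and with the GC correction (0.55, 0.00665), and in 6 of 10 alternatives in all. The clone 4 call held in all 9 alternatives. The call over all EIR libraries held in 6 of 11 and was lost with edgeR (0.1052), the GC correction (0.1213), treatment as covariate (0.1366), counts summed within clones (0.0716) and without untreated clone 4 (0.0595). The clone 3 call was lost with the GC correction (0.0753) and without either clone 3 library (0.1244 without the untreated and 0.1765 without the treated one). RANBP17 and LSP1P4 had the nearest profiles to TET2, at distances of 0.03 and 0.04, and RANBP17 read 558, 824, 893, 1139 and 1255 normalized counts.

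TET3 (ENSG00000187605, chr2:74212037-74335303, plus strand) stood at 1020 normalized counts in parental cells, 1076 and 1113 in clone 3, 1195 in untreated clone 4 and 1884 in treated clone 4. The last library stood apart from the other 4, which were within a narrow range. In clone 4 against parental the log2 fold change was 0.59 (SE 0.26, DESeq2 adjusted p = 0.0662). Without the treated clone 4 library it was 0.23 (adjusted p = 0.5418), and without the untreated one 0.88 (adjusted p = 9.619e-04). With the GC correction it was 0.98 (adjusted p = 4.269e-04), and the difference between the clones, 0.45 (0.237), became 0.57 (DESeq2 adjusted p = 0.0380). Without untreated clone 4 that difference was 0.77 (DESeq2 adjusted p = 1.884e-04), and without treated clone 4 it was 0.12 (0.8527).

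Long transcripts as a class were higher in the treated clone 4 library. Within clone 4, the median log2 ratio of treated to untreated was 0.15 over 1026 expressed genes with canonical transcripts over 8 kb, and -0.11 over 2690 genes of up to 2 kb. Within clone 3 the same medians were 0.07 and 0.00. The canonical transcripts of TET3 (12060 bases), TET1 (9612), TET2 (9589) and DNMT3A (9421) are all over 8 kb, and in clone 4 their treated to untreated log2 ratios were 0.66, 0.41, 0.20 and 0.13. Of the shorter members, DNMT1 (5274 bases) and DNMT3B (4336) were at -0.09 and -0.26, but KDM6A (6094) was at 0.23, above TET2 and DNMT3A, and KDM6B (6728), with few counts, at 1.72. The part of transcript length in these differences was not tested.

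Per kb, TET1 and TET2 had nearly equal shares of the summed TET level in parental cells, 41.6% and 39.7%, with 18.6% for TET3. In clone 3 TET1 was 11.7% and 11.3% of the sum and TET2 66.6% and 66.8%. In clone 4 TET1 was 26.1% and 27.5% and TET2 58.0% and 52.7%. TET2 was thus the most abundant TET gene per kb of canonical transcript in all 4 EIR libraries. The summed TET level was 454 normalized counts per kb in parental cells, 410.4 and 421 in clone 3, and 626 and 789.8 in clone 4, so that the sum in clone 3 was close to parental while its makeup was not.

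**Figure D4:**
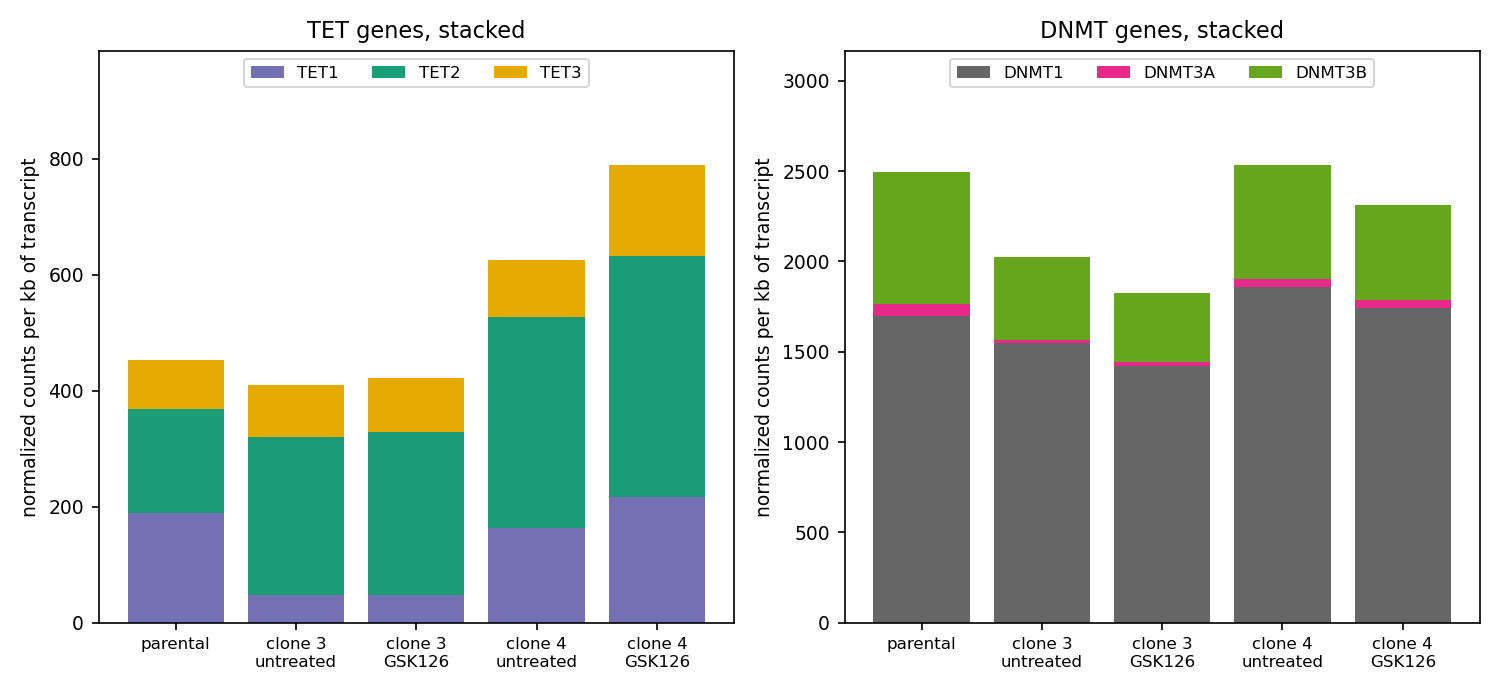
Normalized counts per kb of canonical transcript (vertical axes from 0), stacked by gene, for the TET genes on the left and the DNMT genes on the right in the 5 libraries. TET1 is 41.6% of the parental TET bar and 11.7% and 11.3% of the clone 3 bars, and DNMT1 is the largest part of every DNMT bar.

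Of the H3K27 demethylases, KDM6A (ENSG00000147050, chrX:44732434-44972024, plus strand) stood at 1884 normalized counts in parental cells, 1404 and 1446 in clone 3, and 1764 and 2069 in clone 4. Clone 3 was the lowest, and parental lay within the range of clone 4. None of the 5 comparisons passed with DESeq2. The log2 fold change against parental was -0.40 in clone 3 (SE 0.20, adjusted p = 0.116) and 0.02 in clone 4 (SE 0.20, adjusted p = 0.946). With the GC correction clone 3 passed at -0.61 (DESeq2 adjusted p = 0.00880). The difference between the clones was 0.42 (DESeq2 adjusted p = 0.185) and passed with the GC correction (0.48, 0.0499) and without untreated clone 4 (0.52, 0.0130).

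KDM6B (ENSG00000132510, chr17:7737535-7758114, plus strand) was nearly off. Its raw counts were 20 in parental cells, 19 and 7 in clone 3, and 11 and 36 in clone 4. Exact Poisson 95% intervals, which cover counting error only, were 12.2 to 30.9 in parental cells, 11.4 to 29.7 and 2.81 to 14.4 in clone 3, and 5.49 to 19.7 and 25.2 to 49.8 in clone 4, untreated first. The interval of treated clone 4 lay above those of untreated clone 4 and treated clone 3 and overlapped the other 2. None of the 5 comparisons passed for KDM6B with DESeq2, and the log2 difference between the clones was 0.89 with an SE of 1.14 (DESeq2 adjusted p = 0.830). KDM6A made up 98.4% to 99.6% of the summed KDM6 level per kb in the 5 libraries.

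No change on GSK126 treatment of EIR cells was detected in any of the 8 genes (0 by DESeq2 and 0 by edgeR). The adjusted p was 1.000 for each by DESeq2, while 0.00335% of all genes (1 of 29847) passed. At an unadjusted p under 0.05, 117 genes of the whole table passed. The fold intervals show what was left undetermined. For DNMT1 the interval of treated over untreated was 0.673 to 1.26, for TET2 0.721 to 1.64 and for KDM6A 0.741 to 1.64. For TET3 it was 0.834 to 2.05, and for TET1, whose level differed between the clones, 0.236 to 6.55. With the clone number as a replicate block, 0 of 8 genes passed and 4 genes passed in the whole table. In that paired fit the log2 change of TET1 was 0.19 with an SE of 0.22, and that of DNMT3B was -0.27 with an SE of 0.18. The labels give neither the dose nor the length of this treatment.

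Genes that work with these enzymes were read from lists chosen with earlier results of these data known. The numbers called within them, by DESeq2 in EIR against parental, are descriptions. Among 13 tested genes for TET partners and base excision, 3 rose and 4 fell, beside 12.4% and 13.2% of all genes. IDH2, the mitochondrial isocitrate dehydrogenase that makes 2-oxoglutarate, had 6556 normalized counts in parental cells, 1215 and 1230 in clone 3, and 1510 and 1720 in clone 4. All 4 EIR libraries were far below parental, and IDH2 fell by 2.21 on the log2 scale (SE 0.27, DESeq2 adjusted p = 5.786e-14), a call made in all 11 alternatives. Its cytosolic counterpart IDH1 fell from 5406 to 3496 ± 372 normalized counts (SD, n = 4, log2 fold change -0.63, adjusted p = 0.0147), in 6 of 11 alternatives. TDG, the glycosylase that excises oxidised methylcytosine, rose from 1423 to 2654 ± 394 (log2 fold change 0.90, DESeq2 adjusted p = 0.00361), in 9 of 11. GADD45A, a stress-induced gene that has been linked to DNA demethylation, rose from 429 to 789 ± 90.2 (0.88, adjusted p = 0.00226), in 10 of 11. The median log2 fold change over the 12 expressed genes of the list was -0.24, against -0.06 over all expressed genes. With the GC correction these medians were 0.0246 and 0.017. The list had 0 to 4 genes higher and 1 to 4 lower over the 11 alternatives.

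Methyl donor supply, a list of folate and methionine genes behind S-adenosylmethionine, had 0 genes higher and 5 of 12 lower, beside 12.4% and 13.2% of all genes. The median log2 fold change was -0.37 against -0.06 over all expressed genes, and -0.19 against 0.02 with the GC correction. SHMT1 and SHMT2, which feed one-carbon units into folate, fell from 2024 to 1188 ± 66.5 and from 4325 to 2548 ± 264 normalized counts (log2 fold changes -0.77 and -0.76, DESeq2 adjusted p = 1.030e-04 and 0.00194). With the GC correction SHMT2 was at -0.32 and its call was lost (0.151). MAT2B, a regulatory subunit of the enzyme that makes S-adenosylmethionine, fell by 0.72 (adjusted p = 0.00142 with DESeq2). AHCYL1 fell by 0.64 (adjusted p = 0.00368 with DESeq2, 0.0533 with edgeR), in 8 of 11 alternatives. It is a relative of AHCY, the enzyme that clears what is left of S-adenosylmethionine after methyl transfer. AHCY itself was not called (-0.37, DESeq2 adjusted p = 0.0969). The number lower was 0 to 5 over the 11 alternatives, 0 after summing the counts within clones and 1 with treatment as a covariate.

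DNA methylation maintenance partners had 0 higher and 1 of 8 lower, beside 12.4% and 13.2% of all genes. The called gene was LIG1, the ligase of replication, which went from 3969 to 2911 ± 188 normalized counts (SD, n = 4, DESeq2 log2 fold change -0.45, adjusted p = 0.0339), a call that was made in 1 of 11 alternatives. Methyl-CpG readers also had 0 higher and 1 of 8 lower, beside the same shares of all genes. The gene called was ZBTB4, a zinc finger protein that binds methylated CpG. It fell from 2031 to 1115 ± 99.5 normalized counts (-0.87, DESeq2 adjusted p = 2.520e-04), and with the GC correction its adjusted p was 0.2007.

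Of the complex in which KDM6A works with the H3K4 methyltransferases KMT2C and KMT2D, 0 of 8 genes passed in either direction in EIR against parental. The shares of all genes were 12.4% higher and 13.2% lower. Between the clones KMT2C was called (log2 difference 0.90, DESeq2 adjusted p = 0.00158), with 1894 normalized counts in parental cells, 1779 and 1692 in clone 3, and 2399 and 4424 in clone 4. KMT2D and NCOA6 of the same list also stood highest in treated clone 4, at 2270 and 1264 normalized counts. Elsewhere they were at 694 to 1011 and 524 to 634. As with TET3, the treated clone 4 library was far above the others for KMT2C. Without it the difference was 0.46 (adjusted p = 0.0348), and the call was lost without untreated clone 3 (0.7864) or treated clone 3 (0.8721) and with the GC correction (0.233).

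Among other histone lysine demethylases 1 rose and 7 of 18 fell, beside 12.4% and 13.2% of all genes. The median log2 fold change was -0.41 against -0.06 over all expressed genes, and -0.29 against 0.02 with the GC correction. KDM5B, an H3K4 demethylase, fell from 5391 to 2985 ± 208 normalized counts (-0.85, DESeq2 adjusted p = 1.405e-05), in all 11 alternatives. KDM2B, which binds unmethylated CpG islands, fell from 1679 to 909 ± 108 (-0.89, adjusted p = 0.00136), and KDM3B, an H3K9 demethylase, from 6609 to 4506 ± 270.4 (-0.55, adjusted p = 0.00447). KDM2B was called in 9 of 11 alternatives, lost with the GC correction (-0.56, 0.136), and KDM3B in 6 of 11, lost with edgeR (0.0569). RIOX2 was the gene that rose (0.77, DESeq2 adjusted p = 9.998e-05). Between the clones KDM1B, an H3K4 demethylase, was lower in clone 4, with 661 and 772 normalized counts against 1163 and 1213 in clone 3 and 1162 in parental cells (-0.74, DESeq2 adjusted p = 0.00766). That call was lost without untreated clone 3 (0.1322) or treated clone 3 (0.1805). The number of these genes that were lower in EIR cells was 1 to 8 over the 11 alternatives, with 2 by edgeR, 3 with the GC correction and 2 without either clone 3 library in turn.

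**Figure D5:**
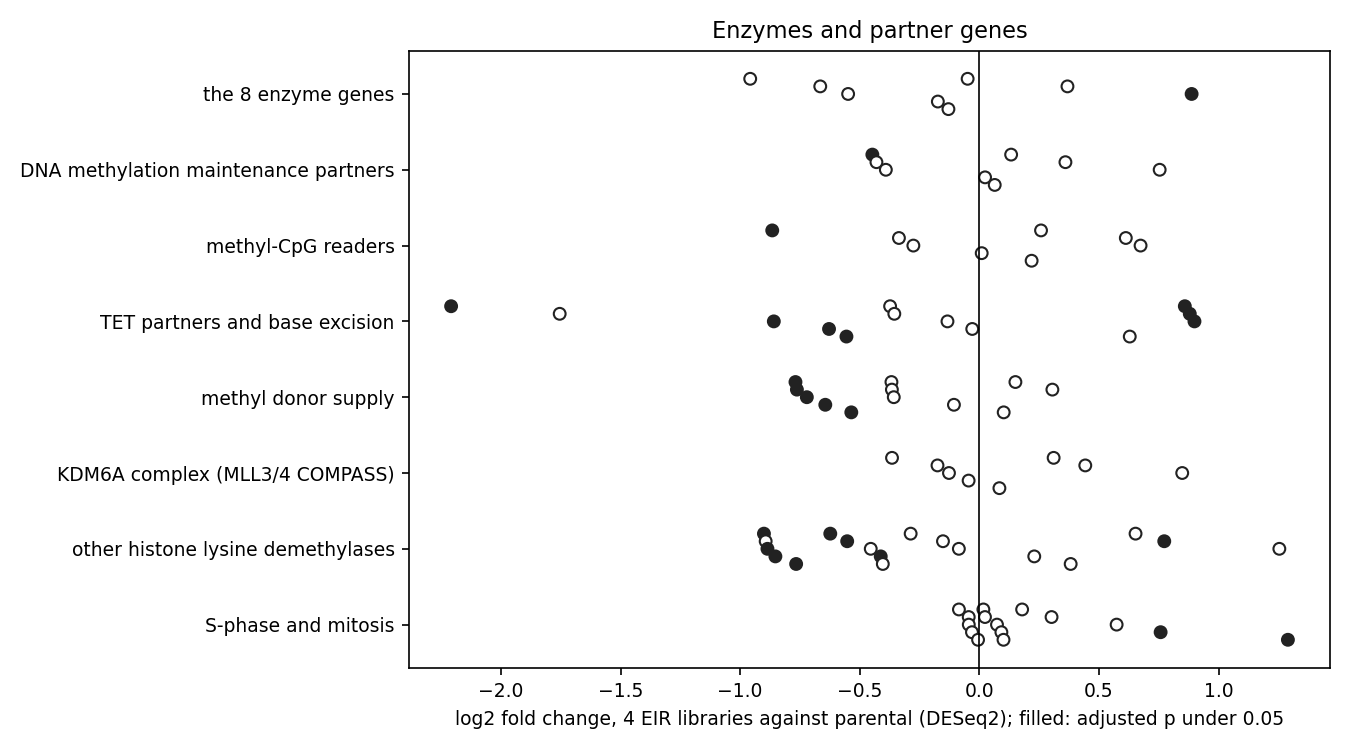
Log2 fold change of the 4 EIR libraries against parental (horizontal axis, DESeq2) for each tested gene of the enzyme set and of 7 lists of partner and related genes (rows), 1 point per gene, filled where the adjusted p was under 0.05. IDH2 is the lowest point at -2.21, and the 5 filled points for methyl donor supply all lie below 0.

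Germline genes that promoter DNA methylation is known to keep silent stayed nearly off. Of 13 listed, 7 were in the table, and their normalized counts summed to 14.1 in parental cells and to 25.9 to 43.5 in the EIR libraries. MAEL, a piRNA pathway gene, had the clearest difference, with raw counts of 1 in parental cells, 11 and 17 in clone 3, and 20 and 22 in clone 4. All 4 EIR libraries were above parental, but the gene did not pass with DESeq2 in EIR against parental (adjusted p = 0.0527, edgeR 0.0564). In edgeR it passed in clone 3 (adjusted p = 0.0317) and clone 4 (0.0138). MAEL was singled out after its values were seen.

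DNMT1 transcription is known to follow the cell cycle, and S-phase and mitosis genes were therefore counted as well. In EIR against parental 2 of 15 rose and 0 fell, beside 12.4% and 13.2% of all genes, so the count of genes that rose was near that of the whole table. With the GC correction 4 of 15 rose and 1 fell, beside 1667 higher and 1516 lower of all 16288 genes tested. TOP2A, the topoisomerase of dividing cells, rose from 13185 to 32232 ± 3390 normalized counts (log2 fold change 1.29, DESeq2 adjusted p = 1.539e-08), in all 11 alternatives. CDC6, which loads the replicative helicase, rose by 0.76 (adjusted p = 0.00206 with DESeq2, 0.0569 with edgeR). Between the clones, MCM6 and MKI67 were called higher and CCNB1 lower in clone 4 (log2 differences 0.65, 0.67 and -0.57, DESeq2 adjusted p = 0.00858, 0.0186 and 0.00969). Each of these 3 calls was lost without untreated clone 3 (0.0708, 0.1501 and 0.2511) and without treated clone 3 (0.3096, 0.9722 and 0.2349). MKI67 read 19000 normalized counts in treated clone 4 and 8704 to 10977 in the other libraries. Without treated clone 4 its difference was 0.27 (adjusted p = 0.1766), and it was called in 4 of 10 alternatives, not with edgeR (0.101) or the GC correction (0.330). CCNB1 was not called with edgeR either (0.0686). The part of the cell cycle in the levels of the enzymes was not tested.

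The libraries held 25479238 to 30764963 counts. KRT8, KRT18 and PAX8, markers of the epithelium of this tumour type, had at least 3031 counts in each library, EPCAM had 398 to 498 counts in parental cells and clone 3 but 0 and 1 in clone 4, and NAPSA had 2 to 53. KRT7 rose from 81 counts in parental cells to 150 to 199 in EIR cells (DESeq2 adjusted p = 0.00483). Over 5 fibroblast markers, normalized counts summed to 358 in parental cells and to 63.1 to 125 in the EIR libraries. COL1A2 made up most of the parental sum and was lower in EIR cells (247 against 2.96 to 30.7, log2 fold change -3.49, DESeq2 adjusted p = 0.00392). COL1A1 was also below parental in each EIR library (91.7 against 13.2 to 65.7). PDGFRB was above parental in each (3.02 against 3.95 to 16.9), DCN lay on both sides of it (16.1 against 10.2 to 49.4), and LUM was at 0 in 4 libraries. The leukocyte markers PTPRC, LYZ and CD68 had 2, 7 and 36 counts in parental cells and 2 to 15, 16 to 21 and 56 to 86 in the EIR libraries. The 2 endothelial markers summed to 9.06 to 21.2. The part of these markers in the levels of the enzymes was not tested. Fold changes in these libraries follow GC content. By their transcripts TET1, TET2 and KDM6A have 42.1% to 43.2% GC and the DNMT genes, TET3 and KDM6B 54.6% to 60.6%, and in each comparison with parental the GC correction lowered the log2 fold changes of the first 3 and raised those of the other 5.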

How the data were processed

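RNA-seq libraries were made from total RNA with a stranded kit and sequenced in paired ends. Per the study's methods, the authors aligned the reads to hg19 with bowtie2 and estimated gene counts with RSEM on an Ensembl annotation of unstated release. The values the authors deposited are estimated counts per gene (the expected counts of RSEM), rounded to whole numbers (0 were not whole) and not normalized. RSEM divides reads that match several genes, and the use of strand in counting is not stated, so overlapping genes are uncertain. All columns were assigned to samples by their names, and the groups came from the labels. Each library held at least 25479238 counts, so counting error is small for every enzyme gene but KDM6B.

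Symbols and positions were taken from GENCODE release 44 on GRCh37, which matched 29203 of 30476 identifiers (95.8%). Counts were tested over the whole table with DESeq2 1.42.0 in R 4.3.3. Size factors were medians of ratios, the Wald test was two-sided, and p-values were adjusted by Benjamini-Hochberg with a threshold of 0.05. The study names the same tool and false discovery rate. EIR was compared with parental, each clone with parental in a fit of 3 groups, the clones with each other with treatment as covariate, and treated with untreated EIR cells. With 1 parental library the spread comes from the EIR libraries. Alternatives were edgeR 4.0.16 (quasi-likelihood), trimmed mean (TMM) and total count scaling, at least 10 counts in every library, a GC correction (smoothing spline with 5 degrees of freedom, fitted to the expressed genes, whose mean is 100 normalized counts or more, with a pseudocount of 0.5), other designs, and leaving out each EIR library. The DESeq2 and edgeR tests of each comparison were run on simulated counts, drawn as independent libraries with the same dispersion for every gene. Libraries of a clone are not independent, so these runs give no error rate for the comparisons here. Clone numbers pair treated and untreated libraries because they are the same clone, and their deviations from the group means correlated at 0.862.

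Named genes were the enzymes, the called genes with the smallest adjusted p of each list (up to 4 in EIR against parental and 3 between the clones), and the 2 nearest profiles of each called enzyme. The members and lists were chosen with earlier results of these data known, and counts within lists are descriptions. Likeness of profiles was the root mean square distance of centred log2 values over 5 libraries.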

Additional observations from a re-analysis of the deposited data

Results flagged for a closer look

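TET1 differed between clone 4 and clone 3 by 1.98 on the log2 scale in a test of the difference itself (DESeq2 adjusted p = 5.530e-18), with 1572 and 2091 normalized counts in clone 4 and 460.1 and 456 in clone 3. DNMT3A differed between the clones by 0.95 on the log2 scale (DESeq2 adjusted p = 0.0172). TET3 had a treated clone 4 library far from the other 3 EIR libraries, with a gap of 0.852 of the range of the 4. About 1 in 20 groups of 4 independent values is set apart in this way by chance. These libraries are 2 clones, each untreated and treated, and 8 genes were examined, so that rate does not apply directly to TET3.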

How the results depend on the processing

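Over the alternatives, 514 of the gene values kept their direction and their side of the threshold, 65 lost the call, 21 gained one and 29 changed sign, and no called value changed sign. The causes were not tested. In EIR against parental, the genes called went from 4158 to 2024 with edgeR, 1998 with treatment as covariate and 1913 with summed clones, and the enzyme genes called from 1 to 0 in each of these and with the GC correction (0). Leaving out 1 library gave 0 to 1 (0 without untreated clone 4). In clone 3 against parental, 4924 genes became 1983 to 5078 when 1 library was left out (2296 without untreated and 1983 without treated clone 3) and 4 enzyme genes became 2 to 4. In clone 4 against parental, 5369 became 3311 to 4625 (3311 without untreated and 3341 without treated clone 3) and 1 enzyme gene became 1 to 2, with 2 for edgeR, 2 for at least 10 counts in every library and 3 for the GC correction. Between the clones, 1743 genes became 831 to 2806 (874 without untreated clone 3, 831 without treated clone 3, 2806 without untreated clone 4) and 2 enzyme genes became 1 to 5, with 4 for edgeR, 7 for the GC correction and 4 with no treatment covariate. Untreated clone 4 left out gave the 5. Treated against untreated EIR cells gave 1 gene, 0 with edgeR (86 at an unadjusted p under 0.05), 4 with the replicate block, 5 with the replicate block and GC correction, and 1 to 25 when 1 library was left out (25 without untreated clone 3, 4 without untreated clone 4 and 4 without treated clone 3). The replicate block changed no call of an enzyme gene.

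Sign changes were in log2 values that had not passed. DNMT1 in EIR against parental, at -0.05, was 0.0241 with total count scaling, 0.0071 with at least 10 counts, 0.28 with the GC correction, 0.0035 with treatment as covariate and -0.11 to 0.0086 when 1 library was left out. In clone 3 DNMT1 was 0.077 with the GC correction. KDM6B in EIR against parental was 0.37 with the GC correction and -0.75 to 0.14 when 1 library was left out. In clone 4 against parental, the GC correction gave 0.029 for DNMT3B, -0.20 for TET1 and -0.12 for KDM6A, TMM scaling gave -0.0029 for TET1, and leaving out 1 library gave -0.20 to 0.20 for TET1, -0.0895 to 0.13 for KDM6A and -0.84 to 0.91 for KDM6B. Between the clones KDM6B was -0.15 to 1.81. For treated against untreated cells, leaving out 1 library gave -0.27 to 0.0102 for DNMT1, -0.40 to 0.69 for DNMT3A, -1.16 to 1.45 for TET1, -0.18 to 0.36 for TET2, -0.0369 to 0.71 for TET3, -0.14 to 0.36 for KDM6A and -1.07 to 1.37 for KDM6B. One parental library and 2 clones limit every comparison, and at the depth of these libraries only KDM6B was limited by its counts.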
